A study of Homo sapiens with 12 samples.

Results

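The regions described here were protein-binding clusters, found by PAR-CLIP, in the interior of long 3' UTRs, the untranslated stretch of an mRNA in which proteins and microRNAs control its stability and translation. A cluster counted as interior when its midpoint, on its own strand, lay in a spliced 3' UTR of at least 3000 nt of a canonical protein-coding transcript (GENCODE release 44), outside every annotated coding sequence, and more than 200 nt from both the stop codon and the transcript end. Of the 96139 clusters on chromosomes 1 to 22, X and Y in 12 libraries, 16403 (17.1%) met this rule. They lay in 1580 of the 3557 genes with a 3' UTR of this length (44.4%). The interiors of all 3557 genes came to 16991 kb.

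PAR-CLIP labels RNA with 4-thiouridine, crosslinks it to bound protein with ultraviolet light and sequences the fragments that precipitate with the protein. All libraries came from wildtype HepG2 cells, a human liver cancer cell line, labelled with 4-thiouridine and treated with RNase T1, which cuts after G. There were 2 libraries each of IGF2BP1, IGF2BP2, METTL1 and WDR4, and 4 of IGF2BP3, of which 2 carried the label bio2. No genotype, drug or time differed between the groups, so the antibody target was the contrast, and no input or mock library was analysed here. Plates were seeded for each replicate, but the labels do not say whether on separate days or from separate stocks of cells, so the p-values measure the spread between these libraries, which may be partly technical. Of 8 hepatocyte genes, APOB, SERPINA1 and FGB had an exonic cluster in all 12 libraries, ALB in 10, AFP and TF in 5, APOA1 in 1 and TTR in 0. A cluster shows contact, not the level of the RNA, and this was the only check of the cell line that the files allowed.

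The IGF2BP family, IGF2BP1 to IGF2BP3, binds RNA. Its members carry RNA recognition motifs and KH domains, are known for holding mRNAs in cytoplasmic granules and slowing their decay, and are oncofetal proteins that liver cancers often express again. CAU followed by A, C or U is an element tied to their binding, and IGF2, H19 and other growth-related transcripts are textbook targets. METTL1 and its partner WDR4 form the complex that writes 7-methylguanosine (m7G) on tRNAs and on some internal positions of mRNAs. The study looked at the IGF2BP proteins as readers of internal m7G, so readers and writers were set against each other.

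Overlapping interior clusters were merged across libraries into 5360 sites. The first set of sequences shows what the most shared sites look like: the narrowest of those found in all 12 libraries, 1 per gene, as the 30 nt centred on the most covered stretch. They are written 5' to 3' on the RNA strand with T for U, from hg38, and capitals mark CAT followed by A, C or T.
IGF2 (chr11:2130295-2130324, minus strand): actgtccggcctggcttctggggacagtgg
CD302 (chr2:159769784-159769813, minus strand): ccttccactcaactccCATAcaactttctt
SERINC5 (chr5:80139578-80139607, minus strand): tctctctctcttttcttctttctcaacaac
TMX4 (chr20:7981038-7981067, minus strand): ttaaaaaaaaaaaatctatcCATCtacttc
MDM2 (chr12:68840049-68840078, plus strand): ttacaccaactcctaattttaaataatttc
RMND5A (chr2:86777785-86777814, plus strand): taaaccttatttaacacaaaccaCATCcat
SCD (chr10:100361122-100361151, plus strand): attatttcttctcttatcctctctctcttc
The same rule also chose sites in YWHAZ, BPNT2 and MTDH, which are named only. The SERINC5 and SCD windows were mostly C and T, those of TMX4 and MDM2 rich in A and T, and that of IGF2 rich in G, and 3 of the 7 windows held the CAT element. In SCD and MDM2 the site lay just past the first 200 nt, at 204 and 217 nt after the stop codon, while in RMND5A it lay at 4389 nt.

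The second set shows sites found in all 8 IGF2BP libraries and in no METTL1 or WDR4 library. The 5 given are among the narrowest with a single-copy centre, 20 nt long and found at 1 place in the genome. This set was chosen after the values were seen, as was the third set.
UBN2 (chr7:139305315-139305344, plus strand): gtcttttaCATCctcttctcactcactctg
TAOK1 (chr17:29545408-29545437, plus strand): tacaaaaactctttcaaacccaaaatatta
LIN7A (chr12:80793220-80793249, minus strand): atctcaccaaatcccttcaacaactctatt
ZBED3 (chr5:77074987-77075016, minus strand): atctactcaaccccaCATCccacccctcac
MED14 (chrX:40650228-40650257, minus strand): CATCtcccacttctcacccaactctgccac
Of the 5360 merged sites, 47 were of this kind. Libraries of METTL1 and WDR4 held a mean of 681 interior clusters against 1710 in IGF2BP libraries. A site without a called cluster in a library may still be bound there. The third set is the reverse, sites in METTL1 and WDR4 libraries and in no IGF2BP library. Of the 5360 sites, 38 of this kind were found in at least 2 writer libraries and 0 in all 4. The 3 shown had single-copy centres.
KDM2A (chr11:67255868-67255897, plus strand): ttgcctcccactgactgcccttttccatgt
ZBTB7A (chr19:4045757-4045786, minus strand): ggacaggggccggggttggggagactatgt
CDC42 (chr1:22091939-22091968, plus strand): tccctcctcttttttttgggggggagtgtg
Each of these was found in both METTL1 libraries and 1 WDR4 library, and no window held CAT followed by A, C or T.

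Interior clusters made up a larger part of the IGF2BP libraries than of the METTL1 and WDR4 libraries. IGF2BP1 had 3181 and 3415 of them, which were 22.9% (95% Wilson confidence interval 22.2% to 23.6%) and 22.7% (22% to 23.4%) of its clusters. IGF2BP2 had 1036 and 1549, or 24.9% (23.6% to 26.3%) and 22.3% (21.3% to 23.2%). IGF2BP3 had 1271 and 1412, or 20.8% (19.8% to 21.8%) and 21.9% (20.9% to 22.9%), in the libraries without the bio2 label. Those with it had 944 and 871, and both stood at 15.7%, below every other IGF2BP library. METTL1 had 514 and 701, or 8.46% and 8.71%, and WDR4 had 805 and 704, or 8.75% and 8.14%. The intervals cover counting error only. No IGF2BP library overlapped the writers' range. The reader mean of 20.9% ± 3.39 (SD, n = 8) exceeded the writer mean of 8.51% ± 0.281 (SD, n = 4) by 12.3 percentage points (two-sided exact permutation test over 495 assignments, p = 0.00202, the smallest the design allows). With the protein as the unit the difference was 13.1 points with an exact permutation p of 0.1, again the smallest possible.

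The IGF2BP libraries also held more 3' UTR clusters in general, 1875 to 6418 against 1263 to 1799. Among 3' UTR clusters alone, interior clusters of long 3' UTRs were 53.8% and 53.2% for IGF2BP1, 55.3% and 55.1% for IGF2BP2, and 49.6% and 52.0% for IGF2BP3. They were 43.0% and 42.6% in the bio2 libraries, which fell inside the range of the writers, at 40.7% and 43.6% for METTL1 and 44.7% and 46.1% for WDR4. The difference was 6.76 points, 50.6% ± 5.13 (SD, n = 8) against 43.8% ± 2.31 (SD, n = 4), with an exact permutation p of 0.0424. With 1 library left out it ranged from 5.72 to 7.90 points, and it missed the threshold without either library of IGF2BP1, IGF2BP2, METTL1 or WDR4 or without IGF2BP3 replicate 2 (largest exact permutation p = 0.121, without METTL1 replicate 1, at 5.72 points). Leaving out the bio2 libraries gave 9.36 points (exact permutation p = 0.00476). With single-copy clusters alone it was 11.9 points (exact permutation p = 0.00202).

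**Figure D1:**
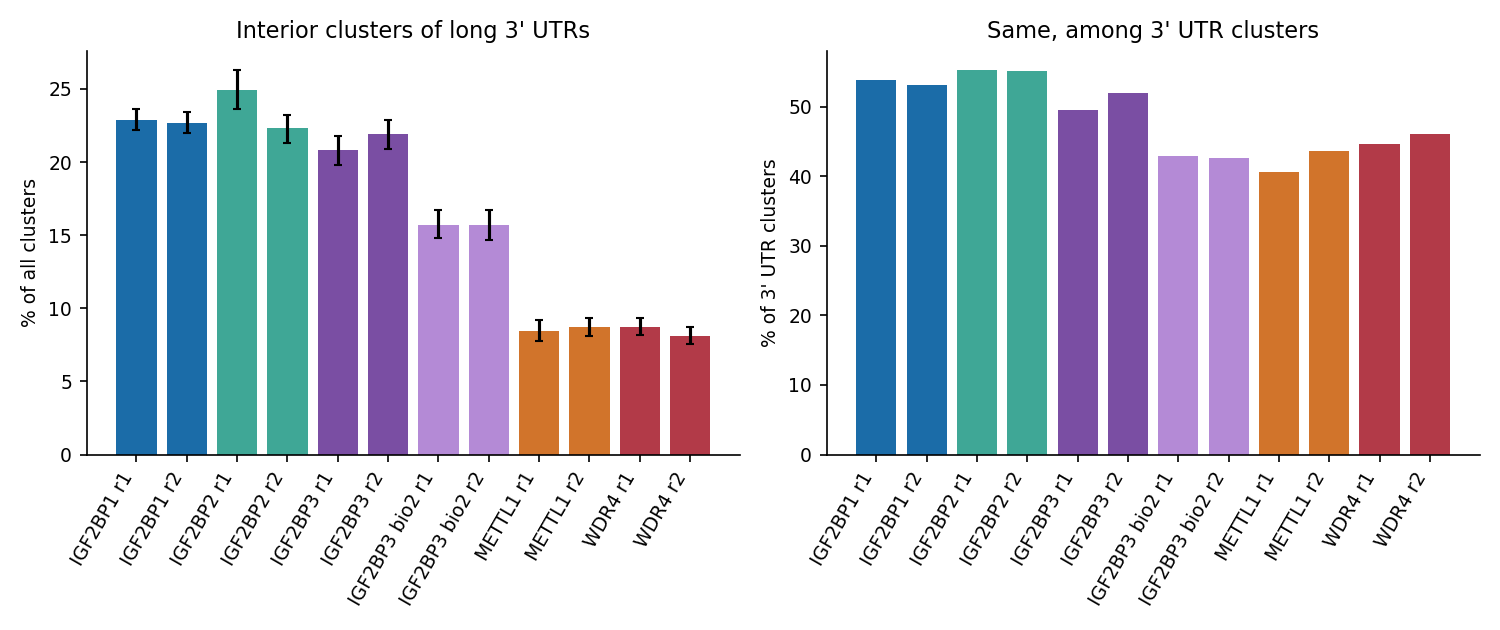
Interior clusters of long 3' UTRs in each library, as a percentage of all clusters (left, with 95% Wilson intervals) and of 3' UTR clusters (right). On the left all 8 IGF2BP bars, at 15.7% or more, stand above the METTL1 and WDR4 bars, at 8.75% or less, while on the right the 2 bio2 bars lie among those of METTL1 and WDR4.

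Density was taken as clusters per kb of annotated sequence, so that regions of unequal length could be compared. The interior held 0.187 and 0.201 clusters per kb in the IGF2BP1 libraries, 0.0610 and 0.0912 in IGF2BP2, 0.0748 and 0.0831 in IGF2BP3, and 0.0556 and 0.0513 in the bio2 libraries. METTL1 had 0.0303 and 0.0413 and WDR4 0.0474 and 0.0414. These levels follow the number of clusters called in a library, so only ratios within a library were tested. All 12 libraries had a lower density in the last 200 nt of the same 3' UTRs, at 0.00988 to 0.0536 clusters per kb. The mean log2 ratio of interior to last 200 nt was 1.63 ± 0.386 (SD, n = 12; two-sided exact sign-flip permutation test, p = 0.000488, the smallest possible). It was 1.71 in the IGF2BP and 1.48 in the METTL1 and WDR4 libraries (difference 0.225, exact permutation p = 0.374). That difference was unstable: it passed without WDR4 replicate 1, at 0.486, and with a margin of 100 nt, at 0.737 (exact permutation p = 0.0242 and 0.0364), and turned to -0.0571 and -0.0600 with 3' UTRs from 2000 and 5000 nt and to -0.557 among the wider clusters. The last 200 nt held between 7 and 38 clusters per library, so the ratio of a single library is imprecise.

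Towards the stop codon the density was higher than in the interior. The first 200 nt after the stop codon held 0.0286 to 0.246 clusters per kb, and the log2 ratio of interior to this window was -0.405 ± 0.334 (SD, n = 12; exact sign-flip permutation test, p = 0.00391). It was below 0 in 9 libraries, and the exceptions were both IGF2BP2 libraries, at 0.05 and 0.02, and METTL1 replicate 1, at 0.08. This result depended on how the window was drawn. The ratio was -0.0885 with a margin of 100 nt (exact permutation p = 0.595), -0.185 where the whole cluster had to lie within the interval (exact permutation p = 0.0879), and turned to 0.0557 among the wider clusters of each library (exact permutation p = 0.697).

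**Figure D2:**
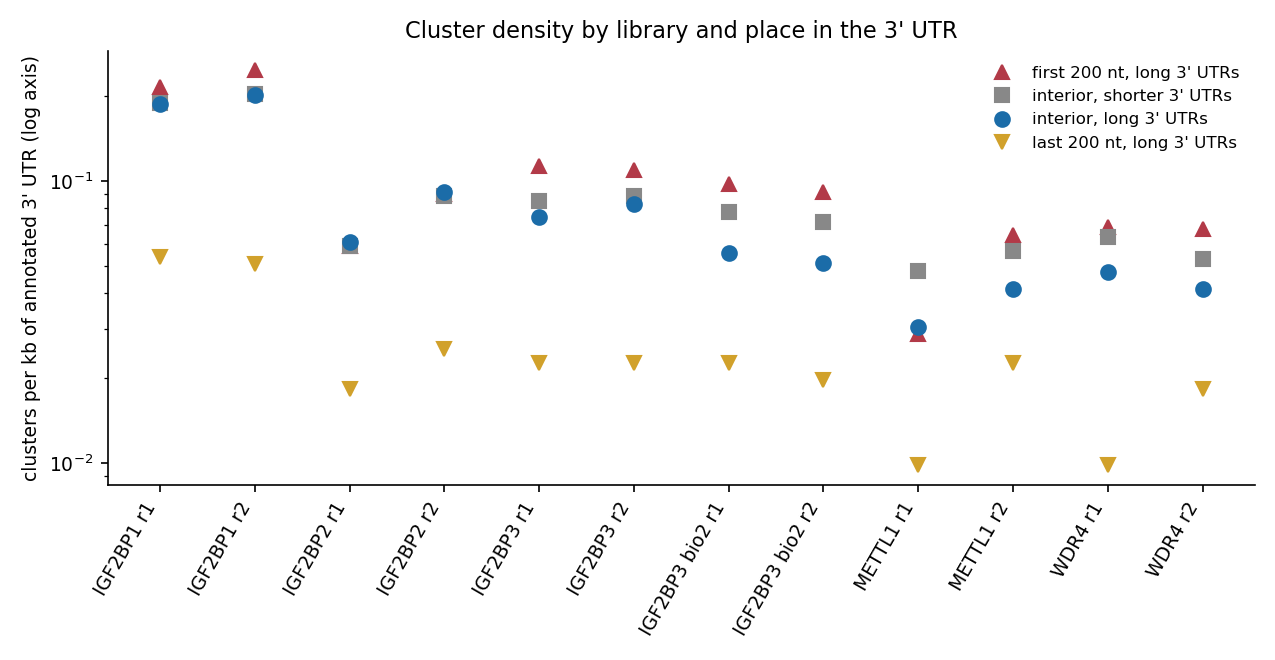
Clusters per kb of annotated sequence (log axis) by library, for the interior and for the first and last 200 nt of long 3' UTRs and for the interior of shorter ones. The last 200 nt are lowest in every library, and the first 200 nt lie above the interior in all but both IGF2BP2 libraries and METTL1 replicate 1.

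The interior of shorter 3' UTRs, cut at the same 200 nt margins, was the nearest comparison outside the long ones, although different transcripts then stand on the 2 sides. Long interiors had fewer clusters per kb in 10 of 12 libraries, with a mean log2 ratio of -0.254 ± 0.249 (SD, n = 12; exact sign-flip permutation test, p = 0.00732). It missed the threshold when long began at 2000 nt, at -0.181, and turned to 0.0317 among clusters of at least the median width (exact permutation p = 0.0635 and 0.667). The ratio was -0.145 in the IGF2BP and -0.472 in the METTL1 and WDR4 libraries, and this difference of 0.327 passed the threshold (exact permutation p = 0.0343). It was 0.264 without METTL1 replicate 1 and 0.334 without METTL1 replicate 2, and then missed it (exact permutation p = 0.115 and 0.0606). Within the long class the density fell with length in both groups. From 3000 to under 5000 nt (2243 genes) it was 0.111 ± 0.0609 (SD, n = 8) clusters per kb in the IGF2BP libraries, from 5000 to under 8000 nt (942 genes) 0.0970 ± 0.0602, and at 8000 nt or more (372 genes) 0.0857 ± 0.0558. The METTL1 and WDR4 libraries had 0.0479 ± 0.00986, 0.0364 ± 0.00542 and 0.0299 ± 0.00458 (SD, n = 4) in the same classes.

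Inside the interior, clusters leaned towards the stop codon. With the interior split into 3 equal parts, the part next to the stop codon held 36.9% to 44.7% of the interior clusters of a library and the part next to the end 26.4% to 30.2%. The median position, scaled from 0 at 200 nt after the stop codon to 1 at 200 nt before the end, averaged 0.426 ± 0.0216 (SD, n = 8) in the IGF2BP and 0.450 ± 0.00219 (SD, n = 4) for METTL1 and WDR4 (difference -0.0246, exact permutation p = 0.0444). It missed the threshold in 8 of the 12 fits with 1 library left out. It was -0.000575 among clusters with a single-copy centre (exact permutation p = 0.937), so it did not hold there. Positions within 200 nt upstream of another annotated transcript end of the same gene held 6.03% ± 1.17 (SD, n = 12) of the interior clusters, where 5.37% ± 0.347 of the interior sequence of the same genes, weighted by its clusters, lay so. Neighbouring interior clusters of a gene and library were a median of 484 to 747 nt apart, and 9.55% to 15.8% of them were within 100 nt of each other.

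The sequence of interior clusters differed by protein. With 10 nt added on both sides, CAT followed by A, C or T was found in 59.0% and 60.8% of the IGF2BP1 windows, 50.2% and 49.5% of the IGF2BP2 windows, and 70.9% and 68.7% of the IGF2BP3 windows. The bio2 libraries had 82.7% and 84.3%, METTL1 43.4% and 43.8%, and WDR4 45.8% and 49.4%. In all windows of the same widths in the interiors of the same genes, the share was 48.1% to 52.5%. So IGF2BP1 and IGF2BP3 lay above that share. Set against the windows of its own genes, IGF2BP2 had 50.2% against 50.6% and 49.5% against 50.4%, and WDR4 replicate 2 had 49.4% against 50.1%, all within 1 point, while both METTL1 libraries and WDR4 replicate 1 were lower, at 43.4% against 48.1%, 43.8% against 49.1% and 45.8% against 48.7%. The IGF2BP mean was 65.8% ± 13.3 (SD, n = 8) against 45.6% ± 2.76 (SD, n = 4), a difference of 20.2 points (exact permutation p = 0.0121, adjusted p = 0.0485 over the 4 elements). With 1 library left out the difference stayed between 17.5 and 22.5 points, but it missed the adjusted threshold without any single IGF2BP3, METTL1 or WDR4 library or IGF2BP2 replicate 1. Leaving out both bio2 libraries gave 14.2 points (exact permutation p = 0.00952, adjusted p = 0.0381).

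The other 3 elements missed the adjusted threshold. GGAC was in 8.95% ± 1.40 (SD, n = 8) of the IGF2BP against 10.2% ± 1.15 (SD, n = 4) for METTL1 and WDR4 (exact permutation test, adjusted p = 0.202), and in 12% of all windows of the same genes. TTTTT was in 15.0% and 15.9% (exact permutation test, adjusted p = 0.398), and in 20.2% of all windows. The TTTTT difference of -0.847 points was -2.05 without METTL1 replicate 1 and -1.55 with 3' UTRs of at least 5000 nt, and then passed (exact permutation tests, adjusted p = 0.0485 and 0.0323). The bipartite element has GGCA 9 to 25 nt before CA or CGGC 15 to 25 nt before it. It was in 12.3% ± 5.40 and 17.9% ± 1.5 (exact permutation test, adjusted p = 0.149), with 12.1% and 14.7% in all windows of the genes bound. Readers differed among themselves, with 19% and 17.8% in IGF2BP2, inside the writers' 16.2% to 19.5%, and 4.77% and 4.82% in the bio2 libraries, whose own windows had 9.29% and 9.39%. Among single-copy centres both GGAC and the bipartite element were lower in the IGF2BP libraries, with differences of -3.86 and -5.29 points (exact permutation tests, adjusted p = 0.0189 for both).

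Base composition moved with the motif. Interior clusters held 32.4% C on average (31.3% to 34.1%), where the interiors of the same 3' UTRs held 21.2%. G was 14.2% and 12.7% in IGF2BP1, 15.9% and 16.3% in IGF2BP2, 8.08% and 9.06% in IGF2BP3, 4.85% and 4.87% in the bio2 libraries, and 16.1% to 18.9% in METTL1 and WDR4. The same 3' UTR interiors were 20.2% to 22.3% G. The order of the proteins by G content was close to the reverse of their order by CAT element, and how far the enzyme that cuts after G bears on either was not tested. Among single-copy interior clusters, the 6-mers most above their share in the same genes were led by CTCTCC for IGF2BP1, in 10.9% of windows against 2.17% of all windows, and AACTCT came next, in 10.3% against 1.67%. AACTCT led for IGF2BP2, in 11.4% of windows against 1.65%, and for IGF2BP3 without the bio2 label, in 11.5% against 1.74%. In the bio2 libraries TCATTT led, in 11.9% against 4.24%, followed by CTCATT, in 9.61% against 2.08%. CTCCCT led for METTL1, in 13.7% against 3.44%, and CTCTTC for WDR4, in 12% against 2.33%. Words mostly of C and T thus led for every protein, and words with CAT filled the first 3 places in the bio2 libraries alone.

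Interior clusters often sat in repeated sequence. Their central 20 nt occurred at 100 or more places in the genome for 19.6% and 17.0% of the IGF2BP1, 23.3% and 23.3% of the IGF2BP2, and 9.36% and 11.8% of the IGF2BP3 interior clusters. The share was 1.17% and 1.03% in the bio2 libraries and 23.3% to 25.5% in METTL1 and WDR4. Other 3' UTR clusters of the same libraries had 0.718% to 12%. The difference was above 0 in 12 of 12 libraries, with a mean of 10.3 points (two-sided exact sign-flip permutation test, p = 0.000488, the smallest possible; a test added after the data were seen). It was 0.447 and 0.0111 points in the bio2 libraries and 5.95 to 17.1 points in the other 10. The study's mapping set a limit of 10 places per read, so reads with more equally good places were left out. How surely the reads that remained place these clusters was not tested. Alu elements descend from 7SL RNA, and 7SL was matched on either strand, with at most 25% edits, by 6.95% and 7.42% of the IGF2BP2 and 5.68% to 7.45% of the METTL1 and WDR4 interior clusters. The share was 3.80% and 3.22% in IGF2BP1, 1.97% and 2.41% in IGF2BP3 and 0% in both bio2 libraries. A rough background came from windows of 40 nt in the interiors of all genes with an interior cluster. It was matched neither to the width of the clusters nor to the genes of each library. Of these windows, 1.62% matched the sense and 1.57% the antisense strand. By strand, in that order, the mean shares of interior clusters were 1.90% and 1.61% in IGF2BP1, near this background. They were 0.928% and 1.26% in IGF2BP3 without the bio2 label, below it, and 3.74% and 3.45% in IGF2BP2, above it. In METTL1 and WDR4 the sense and antisense shares were 3.95% and 3.04%, so both orientations were present.

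**Figure D3:**
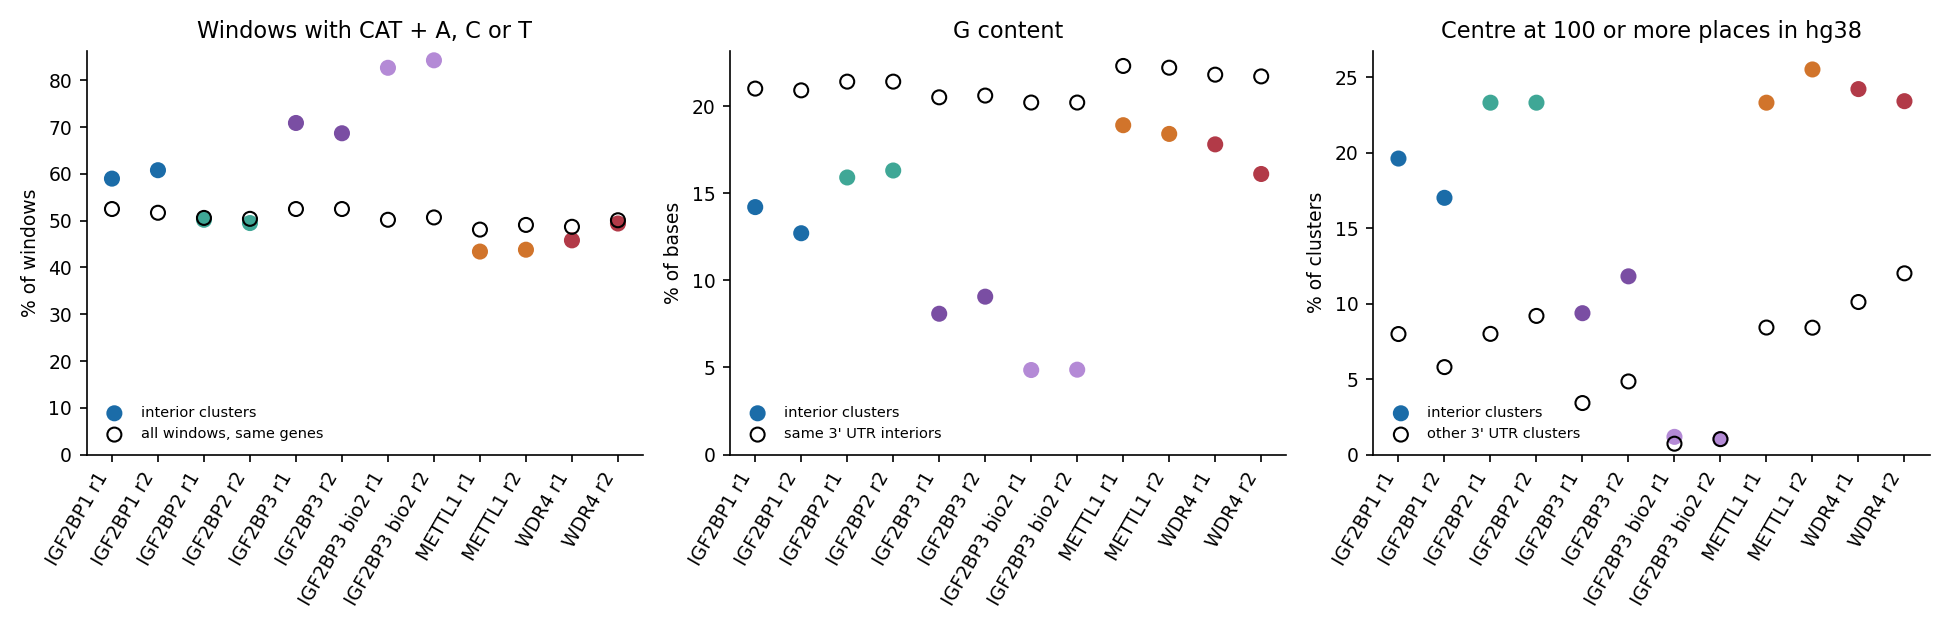
Filled points give the interior clusters of each library: the share of windows with CAT followed by A, C or T (left), the share of G among bases (middle) and the share whose central 20 nt occur at 100 or more places in hg38 (right). Open points give all windows or all bases in the same 3' UTR interiors, or, on the right, the other 3' UTR clusters. The bio2 libraries stand highest for the element, at 82.7% and 84.3%, and lowest for G and for repeated centres.

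Interior clusters were found again in the other replicate of their pair more often than all other clusters, inside or outside 3' UTRs. Whether interior clusters differ in this from other 3' UTR clusters was not tested. In IGF2BP1, 76.0% of the interior clusters overlapped a cluster of the other replicate by at least 1 nt, against 69.2% of all other clusters. The shares were 60.6% against 49.3% in IGF2BP2, 77.6% against 72.3% in IGF2BP3, and 70.5% against 69.0% in the bio2 pair. METTL1 had 34.2% against 21.7% and WDR4 36.8% against 24.6%. The difference was positive in 6 of 6 pairs, with a mean of 8.27 points (two-sided exact sign-flip permutation test, p = 0.0312, the smallest possible for 6 pairs). With every library thinned to the smallest it was 4.81 points and with single-copy centres 8.13 points (exact permutation p = 0.0312 for both). The METTL1 and WDR4 pairs thus shared fewer of their interior clusters than any IGF2BP pair, but the groups differ in the number of clusters and this contrast was not tested.

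In the IGF2BP libraries, interior clusters coincided with a METTL1 or WDR4 cluster less often than other 3' UTR clusters did. The shares were 31.9% against 38.4% and 29.9% against 36.1% in IGF2BP1, 58.8% against 70.3% and 49.3% against 58.0% in IGF2BP2, 42.6% against 47.9% and 42.8% against 50.4% in IGF2BP3, and 22.2% against 26.9% and 23% against 26.4% in the bio2 libraries. All 8 libraries moved the same way, by a mean of -6.74 points (two-sided exact sign-flip permutation test, p = 0.00781, the smallest possible). The 8 libraries share the 4 METTL1 and WDR4 libraries as their reference, and the writers themselves hold fewer interior clusters.

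**Figure D4:**
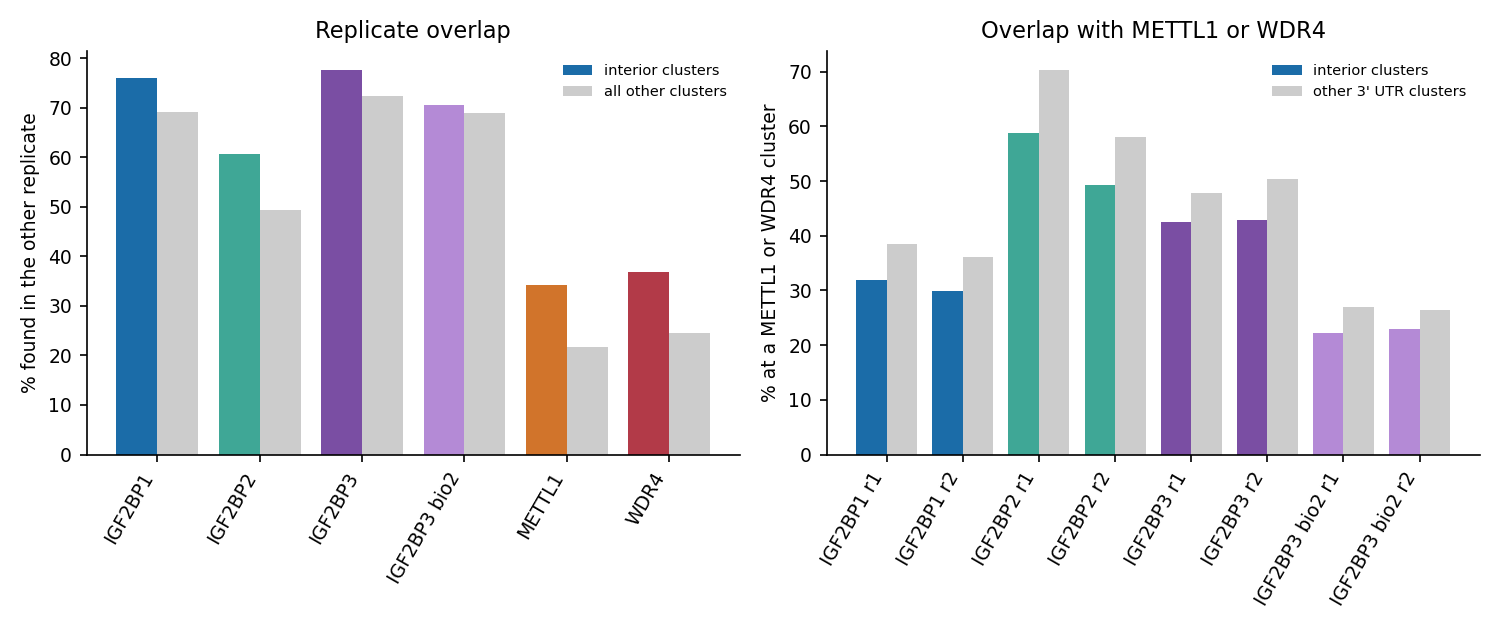
Left, the percentage of clusters found in the other replicate of the same group, for interior clusters (coloured) and all other clusters (grey). Right, the percentage of IGF2BP clusters that overlap a METTL1 or WDR4 cluster, for interior clusters (coloured) and other 3' UTR clusters (grey). The coloured bar is higher in all 6 pairs on the left and lower in all 8 libraries on the right.

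Of the 5360 merged sites, 2118 (39.5%) were seen in 1 library and 3242 in at least 2. IGF2BP1 had 2467 sites in both of its libraries, in 1051 genes, IGF2BP2 768 sites in 456 genes, METTL1 201 in 129 and WDR4 273 in 185. IGF2BP3 had 1367 sites in at least 2 of its 4 libraries, in 809 genes, and 362 in all 4. These counts also follow library size and number. Of the reproducible METTL1 and WDR4 sites, 94.5% in each case overlapped an interior site of some IGF2BP library. Of the reproducible IGF2BP sites, 36.5% for IGF2BP1, 69.0% for IGF2BP2 and 36.9% for IGF2BP3 overlapped one of METTL1 or WDR4. In all, 93 sites in 66 genes were reproducible in all 5 proteins, and 26 sites in 15 genes were seen in all 12 libraries.

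Counts per gene were uneven. IGF2BP1 placed interior clusters in 1185 and 1250 genes, of which 189 and 199 held at least 5, and those genes took 44.1% and 43.2% of its interior clusters. In METTL1 and WDR4 the genes numbered 336 to 488, of which 68.0% to 74.1% held a single interior cluster. Over the genes with any interior cluster in a library, the density was 0.518 and 0.533 clusters per kb in IGF2BP1, 0.343 and 0.397 in IGF2BP2, 0.293 to 0.335 in IGF2BP3 and 0.279 to 0.314 in METTL1 and WDR4. These counts and densities also follow library size, which was 13870 and 15051 clusters in IGF2BP1 and 4157 to 9200 in the other libraries. In 59 genes there was an interior cluster in every library.

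IGF2, the fetal growth factor whose mRNA gave the IGF2BP family its name, led in interior clusters, in sites per kb and in reproducible sites of each protein (hg38 chr11:2129112-2158391, minus strand, 3' UTR of 3870 nt). Its interior held 24 and 26 clusters in IGF2BP1, 21 and 23 in IGF2BP2, 22 and 21 in IGF2BP3, 13 and 12 in the bio2 libraries, 23 and 24 in METTL1 and 26 and 23 in WDR4. Outside the bio2 libraries the proteins overlapped, at 21 to 26 clusters. Over all libraries they merged into 21 sites seen in at least 2, or 6.05 per kb, the highest density of any gene with at least 3 such sites. IGF2 also held 9 of the 26 sites seen in all 12 libraries, and 97.3% of its interior clusters had a single-copy centre. The site printed for it above carried no CAT element.

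PLBD2, a lysosomal phospholipase-like protein (chr12:113358566-113391629, 3' UTR of 3003 nt), followed with 148 interior clusters. It had 14 in each IGF2BP1 and IGF2BP2 library, 15 in both IGF2BP3 libraries, 11 and 9 in the bio2 libraries, 8 and 11 in METTL1 and 14 and 9 in WDR4. CAT with A, C or T was in 91.9% of its windows, against 71.8% for MDM2 and 53.5% for IGF2. MDM2, the ubiquitin ligase that restrains p53 (chr12:68808177-68845544), had 14 and 13 in IGF2BP1, 11 and 12 in IGF2BP2, 10 and 10 in IGF2BP3, 4 and 4 in the bio2 libraries, 7 and 9 in METTL1 and 6 and 10 in WDR4. In both genes the counts of readers and writers overlapped.

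MBNL3, a muscleblind-like splicing factor (chrX:132369320-132489968, 3' UTR of 10346 nt), had 15 reproducible interior sites in IGF2BP1. It had 18 and 18 interior clusters in IGF2BP1, 5 and 7 in IGF2BP2, 10 and 9 in IGF2BP3, 8 and 8 in the bio2 libraries, and 2, 2, 3 and 4 in METTL1 and WDR4. Per 1000 3' UTR clusters, which takes account of the size of a library, all 3' UTR clusters of MBNL3 came to 3.22 ± 0.558 (SD, n = 8) in readers and 1.78 ± 0.590 (SD, n = 4) in writers, and did not pass (exact permutation test, adjusted p = 0.0711). NFAT5, the transcription factor of the response to osmotic stress (chr16:69565094-69704666), had 14 and 19 in IGF2BP1, 7 and 11 in IGF2BP2, 10 and 11 in IGF2BP3, 5 and 4 in the bio2 libraries, and 4 to 6 in METTL1 and WDR4. MFSD4B, a solute transporter (chr6:111259327-111445354), had 17 and 20 in IGF2BP1 but 1 and 1 in the bio2 libraries, and 29.9% of its interior clusters had a single-copy centre.

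By sites per kb, TTYH3, a chloride channel family member (chr7:2631961-2664802), had 4.88, next to IGF2 at 6.05 and PLBD2 at 4.99. All of its 64 interior clusters had a single-copy centre. VHL, the tumour suppressor that marks hypoxia-inducible factors for degradation (chr3:10141778-10153667), had 3.63 sites per kb, but 9.09% of its 88 interior clusters had a single-copy centre. It had 12 and 13 clusters in IGF2BP1 and 1 and 2 in the bio2 libraries. ARID3A, a DNA-binding protein and let-7 target (chr19:925781-975939), had 3.17 sites per kb. It held 10 and 7 interior clusters in METTL1 and 6 and 7 in WDR4, against 10 and 9 in IGF2BP1 and 1 and 1 in the bio2 libraries. CAT with A, C or T was in 43.8% of the TTYH3, 55.7% of the VHL and 32.5% of the ARID3A windows.

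**Figure D5:**
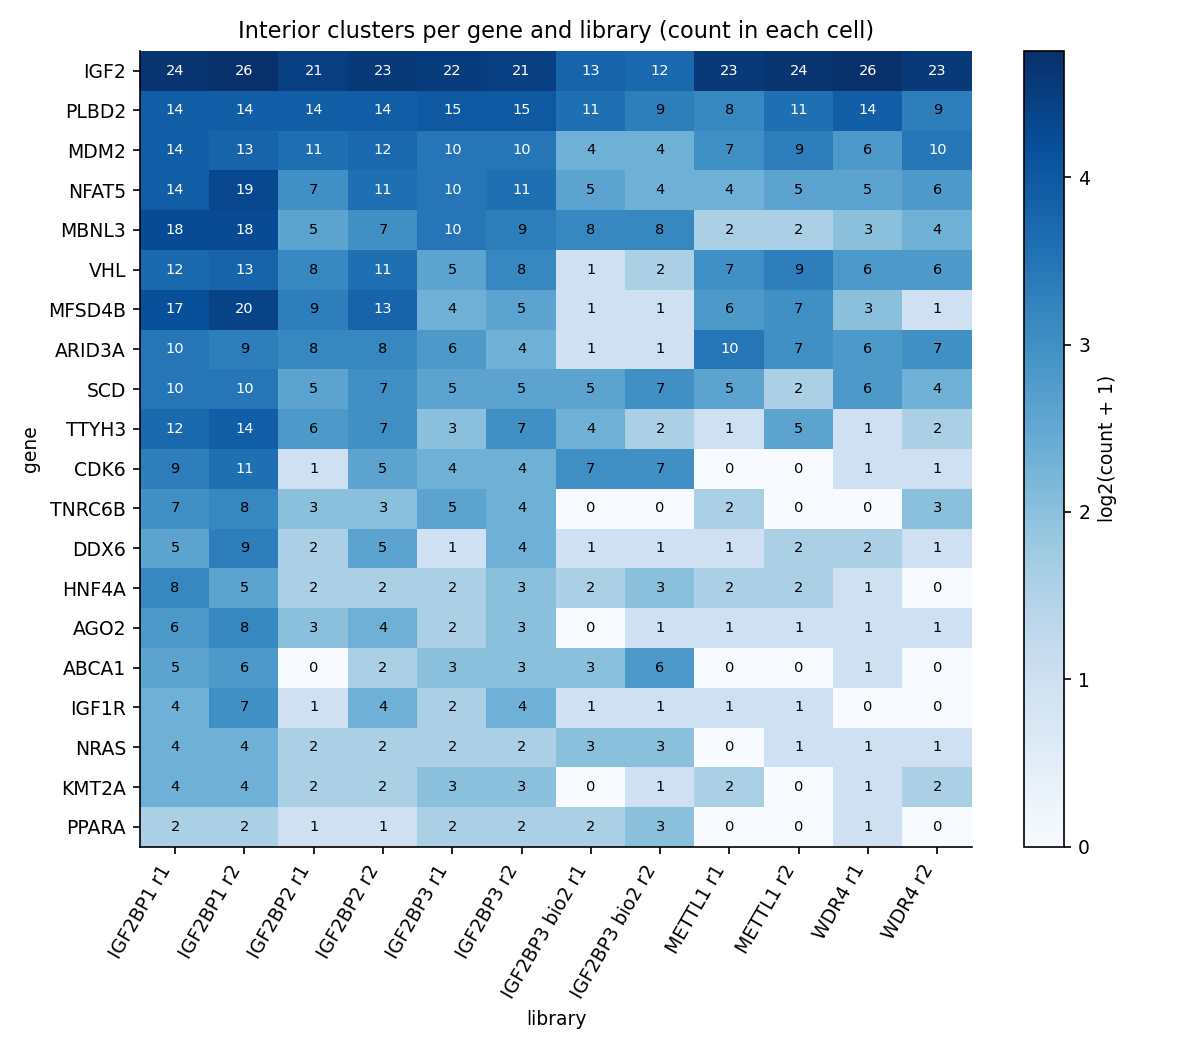
Interior clusters in 20 of the named genes (rows) by library (columns), with the count in each cell and the colour on a log2(count + 1) scale. Columns differ in their total, so counts compare best within a column. IGF2 has 12 or more in every library. VHL, MFSD4B, ARID3A, TNRC6B, AGO2, KMT2A, DDX6 and IGF1R have 2 or fewer in each of the bio2 columns.

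Genes of several functional groups were read next. Of all genes with a long 3' UTR, 44.4% had an interior cluster in some library, and 29.5%, 12.8%, 22.7%, 3.60% and 5.18% had a reproducible interior site in IGF2BP1, IGF2BP2, IGF2BP3, METTL1 and WDR4. The median number of interior clusters over all these genes was 0. The lists hold 5 to 18 genes with a long 3' UTR, were written for genes that liver cells and IGF2BP proteins are known for, and may share genes. They were chosen with earlier results of these data known, so their counts are descriptive and do not test for enrichment over these shares. RNA levels, which bear on whether a cluster can be seen, were not measured.

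The listed oncofetal targets of the let-7 microRNA had an interior cluster in 13 of 13 genes, with a median of 17.0 clusters. IGF2BP1 had a reproducible site in 12 of them, IGF2BP2 in 7, IGF2BP3 in 12, METTL1 in 4 and WDR4 in 5. Besides IGF2 and ARID3A, NRAS, a small GTPase of growth signalling, had 4 and 4 clusters in IGF2BP1, 2 in each IGF2BP2 and IGF2BP3 library, 3 and 3 in the bio2 libraries, and 0, 1, 1 and 1 in METTL1 and WDR4. FIGN, a microtubule-severing enzyme, had 0 to 3 clusters in each IGF2BP library and 1 in each METTL1 and WDR4 library.

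In insulin, IGF and growth factor signalling, 12 of 18 genes had an interior cluster, and a reproducible site was seen in 10 of them with IGF2BP1, 3 with IGF2BP2, 8 with IGF2BP3, 0 with METTL1 and 3 with WDR4. IGF1R, the receptor of IGF ligands, had 4 and 7 clusters in IGF2BP1, 1 and 4 in IGF2BP2, 2 and 4 in IGF2BP3, 1 and 1 in the bio2 libraries, 1 and 1 in METTL1 and 0 in WDR4. The receptor's adaptors IRS1 and IRS2 and the kinase PIK3CA had none. PIK3R1, the regulatory subunit of PI3-kinase, had 9 clusters.

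Factors of RNA silencing and decay were bound themselves. Of 9 genes of the miRNA pathway with a long 3' UTR, 7 had an interior cluster, and 6 had a reproducible site in IGF2BP1. AGO2, the Argonaute that cleaves targets, had 6 and 8 in IGF2BP1, 3 and 4 in IGF2BP2, 2 and 3 in IGF2BP3, 0 and 1 in the bio2 libraries and 1 in each METTL1 and WDR4 library. TNRC6B, the scaffold that joins Argonaute to deadenylases, had 7 and 8 in IGF2BP1, 3 and 3 in IGF2BP2, 5 and 4 in IGF2BP3, 0 and 0 in the bio2 libraries and 0 to 3 in METTL1 and WDR4. DICER1, which cuts precursors into mature microRNAs, had 10 in all, and no METTL1 or WDR4 library had one. Among regulators of mRNA decay and poly(A) tails, 8 of 11 genes had an interior cluster. DDX6, a decay-linked helicase, had 5 and 9 in IGF2BP1, 2 and 5 in IGF2BP2, 1 and 4 in IGF2BP3 and 1 and 1 in the bio2 libraries. Each METTL1 and WDR4 library had 1 or 2. Per 1000 3' UTR clusters, DDX6 had 0.988 ± 0.528 (SD, n = 8) in readers and 0.951 ± 0.274 (SD, n = 4) in writers (exact permutation p = 0.903). CPEB4, a poly(A) regulator, had 13 and SMG1, a kinase of nonsense-mediated decay, 18, and CAT with A, C or T was in 100.0% and 88.9% of their windows.

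In lipid and cholesterol metabolism, 7 of 9 genes had an interior cluster. SCD, which makes monounsaturated fatty acids, had 10 and 10 in IGF2BP1, 5 and 7 in IGF2BP2, 5 and 5 in IGF2BP3, 5 and 7 in the bio2 libraries, 5 and 2 in METTL1 and 6 and 4 in WDR4. ABCA1, the cholesterol exporter, had 5 and 6 in IGF2BP1, 0 and 2 in IGF2BP2, 3 and 3 in IGF2BP3, 3 and 6 in the bio2 libraries and 1 in METTL1 and WDR4 together. PPARA, the fatty acid-sensing nuclear receptor, had 16, and ELOVL6, a fatty acid elongase, 15, and each had 1 in METTL1 and WDR4 together. Among transcription factors of the liver and of stress, 5 of 7 genes had one. HNF4A, the master regulator of hepatocytes, had 8 and 5 in IGF2BP1, 2 to 3 in every other IGF2BP library and 2, 2, 1 and 0 in METTL1 and WDR4. ZBTB20, a repressor of AFP, had an interior cluster in all 12 libraries and a 3' UTR of 24505 nt.

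Of 5 genes of cell cycle and growth control, 4 had an interior cluster. CDK6, a kinase that drives entry into S phase, had 9 and 11 in IGF2BP1, 1 and 5 in IGF2BP2, 4 and 4 in IGF2BP3, 7 and 7 in the bio2 libraries, 0 and 0 in METTL1 and 1 and 1 in WDR4, and CAT with A, C or T was in 92.0% of its windows. CCND1, its cyclin partner, had 14, spread over 10 libraries, and the element was in 42.9% of its windows. Chromatin regulators were the list nearest the background, with 5 of 12 genes (41.7%). KMT2A, a histone methyltransferase, had 24 and TET3, which oxidises methylcytosine, 14, and ATRX, HDAC4 and NSD1 were among the 7 with none.

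The gene-level test asked whether a gene took a different share of the 3' UTR clusters in readers and writers. It ran over 2588 genes with a 3' UTR cluster in at least 3 libraries, of which 1135 had an interior cluster. After Benjamini-Hochberg adjustment 0 genes, 0% of those tested, passed (exact permutation test, smallest adjusted p = 0.0562), and 583 had an unadjusted p below 0.05. The result sat at the edge of what 12 libraries allow. With shares of all clusters 107 genes passed (4.13% of those tested), 103 (3.98%) higher in the IGF2BP libraries and 4 (0.155%) in the writers. Of the genes with an interior cluster 66 (5.81%) then passed, all towards IGF2BP. The IGF2BP libraries held a mean of 3317 3' UTR clusters among 8020 clusters, and the METTL1 and WDR4 libraries 1548 among 7994. Shares of all clusters carry this general difference into every gene, so the directions in this setting cannot be told apart from it. With genes in at least 6 libraries 144 passed (9.58%), 67 (4.46%) towards IGF2BP and 77 (5.12%) towards the writers, and among those with an interior cluster 58 (8.02%) passed, 42 and 16 in turn. Without IGF2BP2 replicate 1 165 passed (6.42%), 87 (3.38%) and 78 (3.03%), and among those with an interior cluster 64 (5.68%) passed, 46 and 18. Of the genes with an interior cluster, 194 (17.1%) had an unadjusted p below 0.05 and a higher share in the IGF2BP libraries, where 13.8% of all genes tested did. In the other direction 68 (5.99%) did, where 8.69% of all genes tested did. A gene entered this set through an interior cluster in any library, and such clusters also count in the share tested. The IGF2BP libraries held a mean of 1710 of them against 681 for METTL1 and WDR4. The set thus leans towards IGF2BP by the way it was formed, and no conclusion is drawn from these shares.

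Of the 2588 genes tested, 93 shared the smallest p. Those described here have an interior cluster and were taken by the size of their difference, so large differences follow from that choice. They are given as values, since none passed. Towards the IGF2BP libraries, ARPP19, a phosphatase regulator of mitosis, had 1.82 ± 0.216 (SD, n = 8) per 1000 3' UTR clusters in the IGF2BP against 0.434 ± 0.539 (SD, n = 4) for METTL1 and WDR4. PTCHD4, a patched-domain protein with a 3' UTR of 21630 nt, had 1.12 ± 0.399 and was listed at 0 in all 4 METTL1 and WDR4 libraries, as was SSR1, a subunit of the translocon-associated complex, at 1.05 ± 0.476. CALU, a calcium-binding protein of the secretory pathway, had 1.40 ± 0.355 against 0.303 ± 0.352. For these genes and the next ones the exact permutation p was 0.00202 and the adjusted p 0.0562.

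Towards the writers stood IGF2, with 7.35 ± 2.68 (SD, n = 8) per 1000 3' UTR clusters in the IGF2BP against 16.5 ± 1.75 (SD, n = 4) for METTL1 and WDR4. Its interior clusters overlapped in number, as given above, while METTL1 and WDR4 had 1263 to 1799 3' UTR clusters in all and the IGF2BP libraries 1875 to 6418. GATD1 had 0.388 ± 0.470 against 2.79 ± 1.31, and 3.57% of its interior clusters had a single-copy centre. AP1S3, a subunit of a clathrin adaptor, had 0.526 ± 0.373 against 1.78 ± 0.590 with 3.85%, TNFAIP8L1 0.220 ± 0.208 against 1.67 ± 1.27 with 25%, and SLC35E1, a sugar transporter family member, 0.591 ± 0.427 against 1.80 ± 0.632 with 35.7%. In these 4 genes most interior clusters had a repeated centre, and none lay in a bio2 library.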

How the data were processed

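The authors deposited called clusters, 1 file of genomic intervals with strand per library and no score, read count or conversion count, so neither sequencing depth nor RNA level is known and a cluster is present or absent. Per the study's methods, reads were filtered and collapsed with the FASTX toolkit, mapped with Bowtie (to hg38, per the submitters' processing notes) and clusters called with PARalyzer in each library; their versions are not given in the sources used here. Starts were read as 1-based, since the base before them was G for 74.2% to 94.9% of clusters. Of 102250 clusters, 6111 outside chromosomes 1 to 22, X and Y were left out, and 49 interior clusters on Y were kept, of which 6 had an identical X copy. The total per library, 4157 to 15051, limits the precision, and intervals are 95% Wilson.

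Transcripts were the Ensembl canonical ones of GENCODE release 44, the same build. Groups came from the sample titles. Shares, element frequencies and positions were compared between 8 IGF2BP and 4 METTL1 and WDR4 libraries by two-sided exact permutation, and differences within a library by exact sign flips, at a threshold of 0.05 with Benjamini-Hochberg adjustment over the 4 elements or over all genes tested. The scripts (Python 3.11.15, pandas 2.3.3, scipy 1.17.1, pysam 0.24.0, edlib 1.3.9.post1) were tested on simulated data. Alternatives left out each library or the bio2 libraries, or changed the unit, margin, length, width, copy number, overlap, windows and gene test. The genes described are those with the most reproducible sites per protein, the most sites per kb, the members of each list found in the most libraries (up to 4 a list, not all of them described) and the first genes of the gene test in each direction, of which 4 of 5 are described towards IGF2BP. Some results are not reported here. The members and lists were chosen with earlier results of these data known.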

Additional observations from a re-analysis of the deposited data

Results flagged for a closer look

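The log2 ratio of clusters per kb in the interiors of long against shorter 3' UTRs differed between the groups by 0.327 (exact permutation p = 0.0343), at -0.145 in the 8 IGF2BP and -0.472 in the 4 METTL1 and WDR4 libraries, and was picked out because an effect within libraries differed between 2 groups. The ratio lay between -0.487 and 0.0479 in the IGF2BP libraries, where the bio2 libraries were lowest, and between -0.663 and -0.356 in METTL1 and WDR4, so the groups overlapped. Among single-copy centres the difference was 0.604 (exact permutation p = 0.00202), and with a margin of 500 nt it was 0.180 (exact permutation p = 0.180). In the 35 comparisons looked at, no single library lay far from all others of its group. That search looks at 1 library at a time and so cannot pick out the bio2 pair, whose 2 libraries lay together and apart from the other IGF2BP libraries in several measures.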

How the results depend on the processing

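Leaving out each library in turn gave ranges of 11.8 to 13.1 points for the interior share of all clusters, 5.72 to 7.90 for that of 3' UTR clusters, -0.0279 to -0.0196 for the scaled position, 17.5 to 22.5 points for CAT with A, C or T, -0.449 to -0.365 and 1.57 to 1.70 for the log2 density ratios to the first and last 200 nt, -0.282 to -0.217 for that to shorter 3' UTRs, 7.42 to 9.63 points for replicate overlap (5 pairs then allow no exact permutation p below 0.0625), -7.21 to -6.06 for writer overlap and 9.65 to 11.2 for repeated centres. The reader minus writer differences of the 3 ratios were -0.0149 (without WDR4 replicate 2) to 0.245, 0.0219 to 0.486 (past the threshold without WDR4 replicate 1) and 0.264 to 0.376, and the gene count 0 to 165. The position missed the threshold without IGF2BP1 replicate 2, IGF2BP2 replicate 1, either IGF2BP3 library without bio2, or any METTL1 or WDR4 library.

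With the protein as the unit, where 3 against 2 allow no exact permutation p below 0.1 and 5 sign flips none below 0.0625, the values were 13.1 and 8.01 points, -0.0194, 16.5 points, -0.354, 1.64 and -0.243, and 0.382 for the reader minus writer difference to shorter 3' UTRs. Replicate numbers did not pair the libraries (15 correlations of -0.0248 to 0.0286). Under the replicate block the share of 3' UTR clusters (6.76 points), the position (-0.0246) and the CAT element (20.2 points) missed the threshold (exact permutation p = 0.0578 and 0.0578, and 0.0711 after adjustment), and the share of all clusters, 12.3 points, passed it. Without the bio2 libraries replicate overlap was 9.63 points. With a margin of 100 nt the position was -0.0224, the ratio to the stop window -0.0885 and the group difference of the ratio to the end 0.737, which then passed. With 500 nt the share of 3' UTR clusters was 5.79, the position -0.0203 and the group differences to the stop window and to shorter 3' UTRs -0.0482 and 0.180. From 2000 nt the position was -0.0111, the group difference to the end -0.0571 and the ratio to shorter 3' UTRs -0.181, which then missed the threshold, and from 5000 nt the first 2 were -0.00711 and -0.0600. With single-copy centres the position was -0.000575 and the group difference to the stop window 0.314. Among clusters at or above the median width the values were 3.95 points of 3' UTR clusters, -0.0199 for position, 18.4 points for CAT, 0.957 points for GGAC, 0.0557 to the stop window, 0.0317 to shorter 3' UTRs, and -0.557 and 0.227 for the group differences to the end and to shorter 3' UTRs. With the whole cluster inside the interval the ratio to the stop window was -0.185. The gene test called 107 genes on shares of all clusters and 144 among genes in at least 6 libraries. The cause was not tested for any of these. Of 157 settings other than leaving out 1 library, 114 kept the direction and the side of the threshold. The test on repeated centres was chosen after seeing the data.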
